A study of Mus musculus with 12 samples.

Results

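Replication-dependent histone genes encode the linker histone H1 and the core histones H2A, H2B, H3 and H4 that package newly copied DNA. Most are small genes without introns that lie in clusters. Their mRNAs are transcribed mainly in S phase and end in a short stem-loop in place of a poly(A) tail, which is bound by the stem-loop binding protein Slbp. Replacement histone genes lie outside these clusters, mostly give polyadenylated mRNA, and are transcribed outside S phase as well. The adult lens epithelium is a mostly resting cell layer that divides slowly in a germinative zone.

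Genes whose symbol in the deposited tables starts with Hist1h, Hist2h, Hist3h or Hist4h were taken as members, and a symbol ending in -ps was left out. This gave 69 of 45859 listed genes. They comprised 6 H1, 20 H2A, 18 H2B, 12 H3 and 13 H4 genes. The Hist1 cluster on chromosome 13 held 56 of them, the Hist2 cluster on chromosome 3 held 10, the Hist3 cluster on chromosome 11 held 2, and Hist4h4 lay alone on chromosome 6.

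The libraries were made from lens cells (LCs) of adult mice at 2 months of age, after the fiber cells had been removed as in cataract surgery and the capsule with its adhering LCs was left. Capsules were taken at 0 h or 24 h post cataract surgery (PCS), and every group underwent the surgery. WT mice were C57BL/6. β8ITG-cKO mice were Mixed (C57BL/6, 129S1/Sv), carried a floxed Itgb8 allele and the MLR10-Cre transgene, which is active in all lens cells from the lens vesicle stage, and these libraries hold no Cre-negative littermates, so genotype and strain cannot be told apart. Each of the 4 groups had 3 libraries, and each library pooled 5 capsules. In bulk RNA of this kind fewer cells of a type and less RNA per cell cannot be told apart.

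The libraries held 446531 to 740140 summed FPKM (fragments counted on a gene, scaled by the length of the transcript and the size of the library), and the steps between low values placed their relative depths between 0.87 and 1.09. Itgb8, the targeted gene, stood at 7.26, 10.8 and 8.42 FPKM in WT 0 h, 9.08, 8.38 and 9.58 FPKM in WT 24 h, 6.83, 4.58 and 7.31 FPKM in β8ITG-cKO 0 h, and 9.28, 11.8 and 10.3 FPKM in β8ITG-cKO 24 h. These values cover the whole gene and did not separate the genotypes at 24 h, so the groups are those of the labels. The lens epithelium genes Pax6 (59.9 to 93.5 FPKM) and Foxe3 (25.5 to 172 FPKM) were present in every library. Cryaa, of the same list, was listed at 28170, 0 and 24300 FPKM in WT 0 h, and the cause of the 0 in replicate 2 was not tested. Cells of other types were present as well and moved with the groups. Retinal markers summed to 173 to 1384 FPKM in WT 0 h, 91.1 to 172 FPKM in WT 24 h, 216 to 394 FPKM in β8ITG-cKO 0 h and 978 to 1176 FPKM in β8ITG-cKO 24 h. At 24 h 15 of 16 were past the test as higher in β8ITG-cKO than in WT, where 5.64% of all genes tested were.

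The 3′ ends of the members were read from the GENCODE transcripts (GRCm38), within 100 bases of the stop codon, for a perfect inverted repeat of 6 bases around a loop of 4 bases. It was found in 46 members. Of the others, 15 have models that end under 16 bases after the stop codon and could not be searched, 2 (Hist1h2aj and Hist1h2al) have no protein-coding transcript, and 6 held no such repeat (Hist1h1a, Hist1h2bc, Hist1h2bq, Hist1h2br, Hist2h2be and Hist2h3b). Of these 6, Hist2h3b and Hist1h1a have models that end 37 and 48 bases after the stop codon, so the models may stop short of a repeat. Found repeats started up to 58 bases after the stop codon (Hist2h2aa1). The repeat had 8 forms. The commonest was found in 26 members of H1, H2A, H2B and H3, and the H4 genes carried forms of their own. The forms are shown on the members that the results below turn on, as DNA letters of the mRNA strand with the repeat and its loop in capitals.
Hist1h1c, H1, chromosome 13, chr13:23739512-23739527, plus strand: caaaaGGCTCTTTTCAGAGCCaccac
Hist1h3c, H3, chromosome 13, chr13:23745047-23745062, minus strand: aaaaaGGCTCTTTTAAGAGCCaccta
Hist2h2ac, H2A, chromosome 3, chr3:96220418-96220433, minus strand: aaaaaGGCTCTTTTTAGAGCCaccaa
Hist4h4, H4, chromosome 6, chr6:136803998-136804013, minus strand: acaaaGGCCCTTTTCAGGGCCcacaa
Hist1h4b, H4, chromosome 13, chr13:23757366-23757381, plus strand: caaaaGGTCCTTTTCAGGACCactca
All 5 repeats lie in the 3′ UTR, 21 to 54 bases after the stop codon, and each is of a different form.

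Near-identical copies limit what FPKM of single members can show. Of 67 members with a coding sequence, 19 shared at least 90% of their 100-base coding windows with a transcript of another gene and 13 shared under 10%. The H1 genes were the most distinct, with 0% to 13.7% of windows shared, while the medians were 85.9% for H2A, 51.95% for H2B, 71.6% for H3 and 60.1% for H4. Hist2h2aa1 and Hist2h2aa2, whose coding windows are all shared, stood at a ratio of 1.103 to 1.119 in the 12 libraries. Values of such members are uncertain between the copies, and the summed level of a class is less exposed to the splitting.

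Histone mRNA was present in every library and was highest in the β8ITG-cKO 24 h libraries and in 1 WT 24 h library. The summed level of the 69 members was 2124, 2664 and 1927 FPKM in WT 0 h, 6642, 1874 and 1281 FPKM in WT 24 h, 3047, 2054 and 2785 FPKM in β8ITG-cKO 0 h, and 3685, 6919 and 8608 FPKM in β8ITG-cKO 24 h. WT 24 h replicate 1 stood apart from its group and lay in the range of the β8ITG-cKO 24 h libraries. It had the highest value of its group in 64 of 66 members with a mean of at least 0.5 FPKM, and WT 24 h replicate 3 had the lowest in 59. In β8ITG-cKO 24 h, replicate 3 was highest in 62 and replicate 1 lowest in 64, so libraries of one group were ordered alike in most members.

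**Figure D1:**
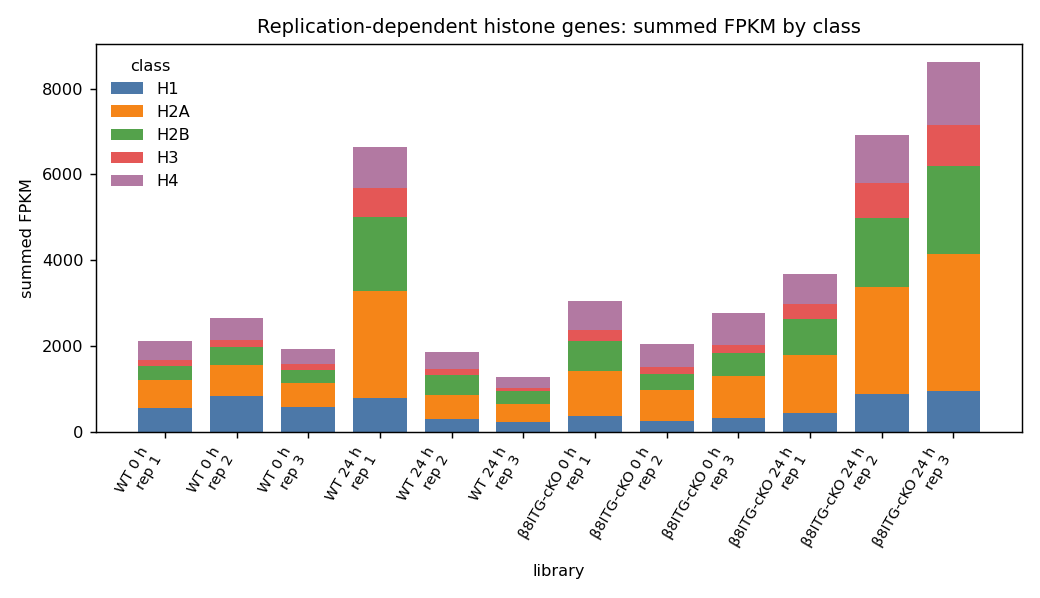
Summed FPKM of the 69 members (y axis, linear from 0) in each of the 12 libraries (x axis), stacked by histone class H1, H2A, H2B, H3 and H4. WT 24 h replicate 1 reached 6642 FPKM against 1874 and 1281 FPKM in the other WT 24 h libraries, and the β8ITG-cKO 24 h libraries reached 3685 to 8608 FPKM.

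The 15 members with the highest mean FPKM over the 12 libraries were Hist1h1c (269), Hist2h2aa1 (218), Hist2h2aa2 (196), Hist1h1e (166), Hist1h4d (141), Hist2h2ac (115), Hist1h2bc (113), Hist2h2bb (112), Hist1h4c (99.1), Hist1h4h (90.8), Hist1h2ap (72.0), Hist1h2ak (67.3), Hist1h2ai (66.6), Hist1h2ac (62.9) and Hist1h2bg (62.8). Hist1h3e, at 50.3 FPKM, led the H3 genes. FPKM is scaled by transcript length, so these levels can be set beside each other only roughly, within the limits of shared reads and of the transcript models used. At the low end, Hist2h2be had a mean of 1.121 FPKM, Hist1h1t, the testis H1, was listed at 0 in 7 libraries, Hist1h2aa at 0 in 10, and Hist1h2aj, a pseudogene in GENCODE, at 0 in all 12. These last 3 were under the limit of 0.5 FPKM and were not tested, which left 66 of 69 members in every comparison. Hist1h2aa and Hist1h2ba are listed with the same start and end in the files, from 23933086 to 23949115 on chromosome 13.

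The share of each class in the histone mRNA varied between the groups. H1 took 26.7% to 32.0% of the summed FPKM of the members in WT 0 h, 11.95% to 19.2% in WT 24 h, 12.01% to 12.25% in β8ITG-cKO 0 h and 11.03% to 12.96% in β8ITG-cKO 24 h. H3 took 5.62% to 6.73% in WT 0 h and 9.47% to 11.6% in β8ITG-cKO 24 h. Within H1, Hist1h1c and Hist1h1e, the genes of H1.2 and H1.4, together made up 93.0% to 94.9% in WT 0 h, 67.6% to 92.0% in WT 24 h, 81.4% to 83.1% in β8ITG-cKO 0 h and 62.9% to 70.5% in β8ITG-cKO 24 h. These shares are descriptions and were not tested.

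**Figure D2:**
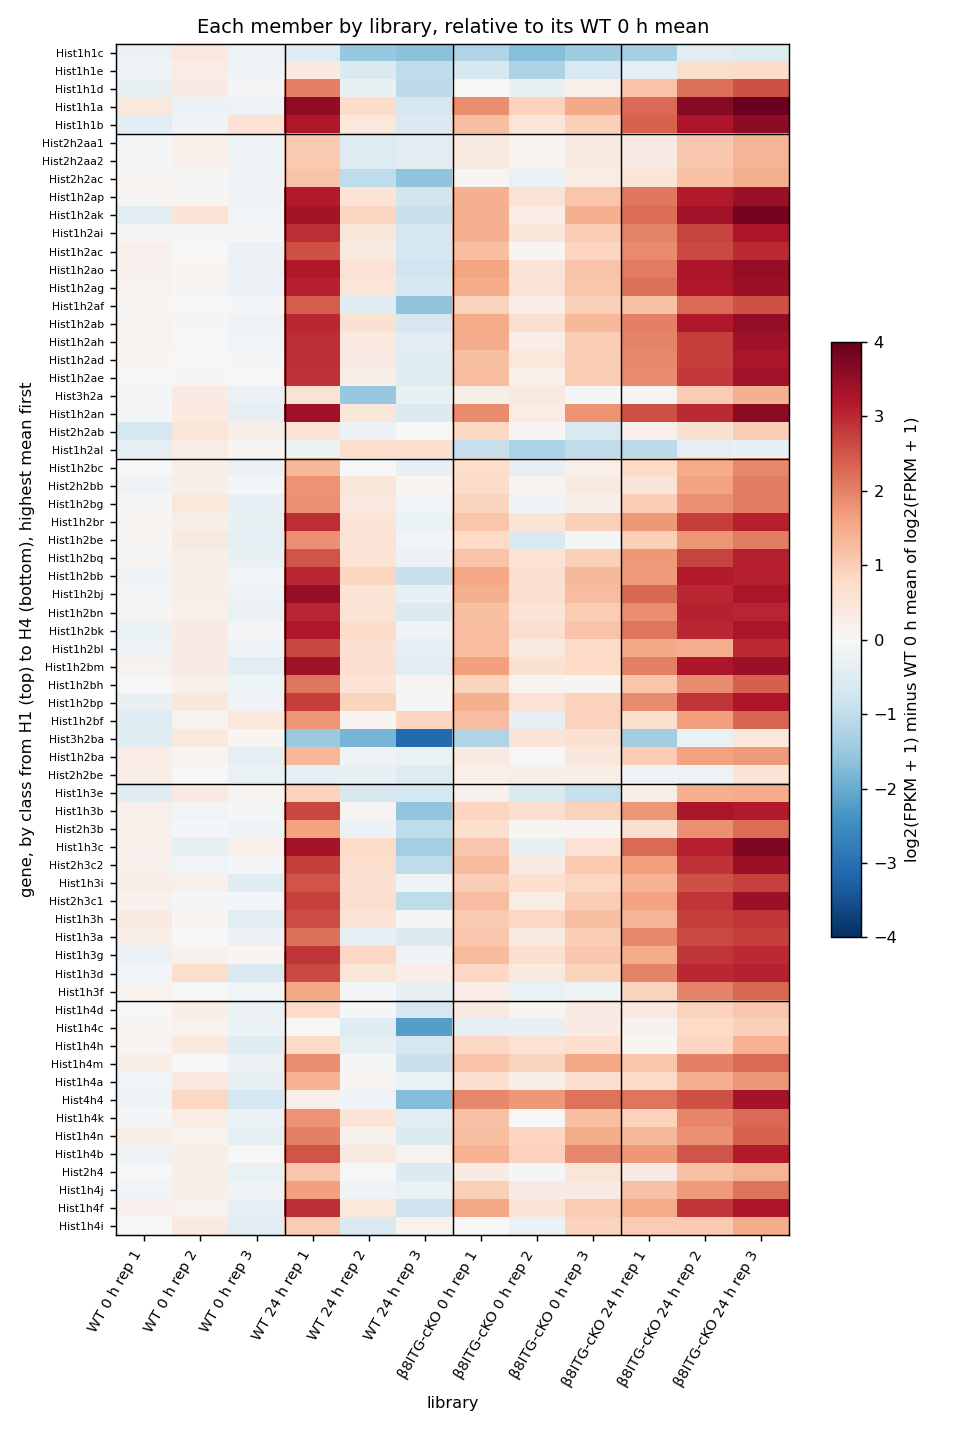
Each of the 66 tested members (rows, by class from H1 to H4 and by mean level within a class) in the 12 libraries (columns), coloured by log2(FPKM + 1) minus the mean of that value in WT 0 h. WT 24 h replicate 1 resembles the β8ITG-cKO 24 h columns in nearly every row, while Hist1h1c, Hist1h1e, Hist1h2al and Hist3h2ba depart from the other rows of their classes.

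The response to fiber cell removal was compared first in WT (WT 24 h minus WT 0 h), with a limma-trend fit on log2(FPKM + 1) over 15146 genes and Benjamini-Hochberg adjustment. A gene was past the test at an adjusted p of at most 0.05. None of the 66 members was past the test as higher, while 20.9% of all genes tested were, and 2 members were past it as lower, against 8.81% of all genes. By unadjusted p no further member was at 0.05 or below. On this scale 56 members were higher and 10 lower, with a median difference of 0.76 beside 0.16 over all genes. No member had its 3 WT 24 h libraries above all 3 WT 0 h libraries, which 31.3% of all genes did. The class medians were 0.22 for H1 (1 of 5 past the test as lower, summed level 0.676 of that at 0 h), 0.90 for H2A, 0.93 for H2B, 0.81 for H3 and 0.30 for H4. The direction over all members rested on WT 24 h replicate 1: without it, 20 members were higher and 46 lower, the median was -0.11, and the summed level was 0.704 of that in WT 0 h in place of 1.46 times. By class, the summed level without it was 0.42 (H1), 0.75 (H2A), 1.09 (H2B), 0.84 (H3) and 0.73 (H4) of that in WT 0 h.

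Hist3h2ba and Hist1h1c were the members past the test in WT. Hist3h2ba, an H2B gene of the Hist3 cluster, had 7.48, 14.5 and 11.4 FPKM in WT 0 h and 3.20, 2.21 and 0.367 FPKM in WT 24 h. All 3 later libraries were lower, replicate 1 included (difference -2.16 ± 0.42 (SE), adjusted p = 0.00803). Hist1h1c, the gene of linker histone H1.2, had 373, 593 and 379 FPKM in WT 0 h and 306, 152 and 140 FPKM in WT 24 h. The groups did not overlap (difference -1.22 ± 0.33 (SE), adjusted p = 0.0292, over 13 alternatives 0.00752 to 0.0974, past the test in 7). It was not past the test without any 1 of the WT 0 h libraries or WT 24 h replicate 2 or 3, while Hist3h2ba was past it in 13 of 13 alternatives. Without WT 24 h replicate 1 both were joined as lower by Hist2h2ac (-1.31 ± 0.21, adjusted p = 0.00786), an H2A gene, and Hist1h1e (-0.80 ± 0.23, adjusted p = 0.0460). Without WT 24 h replicate 3 instead, Hist1h4k, Hist2h3c1, Hist2h3c2, Hist1h2bp, Hist1h3g and Hist1h2bb were past the test as higher, by 1.17 to 1.95, and without replicate 2 Hist1h2bf was (1.32).

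In β8ITG-cKO LCs, most members rose between 0 h and 24 h. Of 66 members, 50 were past the test as higher, where 35.4% of 15237 genes were, and 0 as lower, where 10.7% of all genes were. Of the 16 others, 14 were higher and 2 lower, with 57 members at an unadjusted p of at most 0.05. The median difference was 1.44 on the log2(FPKM + 1) scale beside 0.23 over all genes. The summed level rose from a mean of 2629 ± 515 to 6404 ± 2502 FPKM (SD, n = 3), 2.44 times. In 46 members all 3 β8ITG-cKO 24 h libraries lay above all 3 β8ITG-cKO 0 h libraries, which 42.9% of all genes did. The count was 18 when all 4 groups shared 1 estimate of the spread, and 32 with no filter on low values. Retinal markers rose in the same comparison, in 16 of 16 genes (median difference 1.64), and red blood cell markers in 5 of 5 tested genes (median 3.15, summed level 6.52 to 15.8 FPKM at 0 h and 87.4 to 195 FPKM at 24 h). Their part in the histone values was not tested.

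All 12 H3 genes were past the test, with differences of 1.29 to 2.57. Hist1h3c, which encodes a canonical H3, rose most of all members, from 16.7, 5.65 and 11.1 FPKM to 38.1, 69.6 and 107 FPKM (2.57 ± 0.43 (SE), adjusted p = 0.00229). Hist1h3d (1.99 ± 0.29, adjusted p = 0.00114) and Hist1h3b (1.92 ± 0.36, adjusted p = 0.00369) followed among the H3 genes. The lowest 24 h library was above the highest 0 h library for each of these 3 genes. For Hist1h3e, the H3 gene with the highest level, the values went from 44.6, 25.4 and 20.2 FPKM to 46.6, 109 and 111 FPKM (1.51 ± 0.39, adjusted p = 0.0144). The lowest 24 h library was just above the highest 0 h library.

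Among the linker histones, 4 of 5 tested genes were past the test as higher in β8ITG-cKO. Hist1h1b, the gene of H1.5, went from 15.6, 9.11 and 13.1 FPKM to 36.5, 67.1 and 85.2 FPKM (2.18 ± 0.31, adjusted p = 0.00102). Hist1h1d, the gene of H1.3, went from 26.1, 21.0 and 30.4 FPKM to 59.3, 126 and 157 FPKM (2.00 ± 0.33, adjusted p = 0.00208). Hist1h1a, the gene of H1.1, and Hist1h1e rose by 1.87 and 1.197 (adjusted p = 0.00898 and 0.0156). The groups did not overlap in any of these 4 genes. Hist1h1c had 188, 135 and 162 FPKM at 0 h and 174, 325.5 and 303 FPKM at 24 h, where replicate 1 lay inside the 0 h range (0.69 ± 0.24, adjusted p = 0.0513).

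Of the H2A genes 13 of 18, and of the H2B genes 14 of 18, were past the test as higher. Hist1h2ak rose most among them, from 41.7, 18.8 and 41.6 FPKM to 73.7, 163 and 227 FPKM (2.09 ± 0.44, adjusted p = 0.00641). Its groups did not overlap, and Hist1h2ap (1.89), Hist1h2ac (1.79), Hist1h2ai (1.66), Hist1h2bg (1.30) and Hist1h2bc (1.21) were past the test as well. Hist2h2aa1, the H2A gene with the highest level, had 211, 179 and 208 FPKM at 0 h and 204, 341 and 420 FPKM at 24 h, with replicate 1 inside the 0 h range (0.63 ± 0.25, adjusted p = 0.0701). Hist2h2be and Hist3h2ba were the only members lower at 24 h in this comparison, with differences of -0.16 and -0.39 and adjusted p of 0.563 and 0.609.

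Of the H4 genes 7 of 13 were past the test as higher, with a median difference of 0.75 in the class beside 1.87 for H1, 1.74 for H2A, 1.47 for H2B and 1.70 for H3. Hist1h4h, an H4 gene of high level, had 117, 97.5 and 105 FPKM at 0 h and 70.1, 120 and 174 FPKM at 24 h, with overlapping groups (0.10 ± 0.29, adjusted p = 0.807). Hist1h4d (0.56, adjusted p = 0.0437) and Hist1h4c (0.75, adjusted p = 0.0387) were past the test, but in 4 and 6 of 13 alternatives. The summed H4 level was 1.67 times that at 0 h, and the summed H3 level 3.53 times. The difference between classes was not tested.

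**Figure D3:**
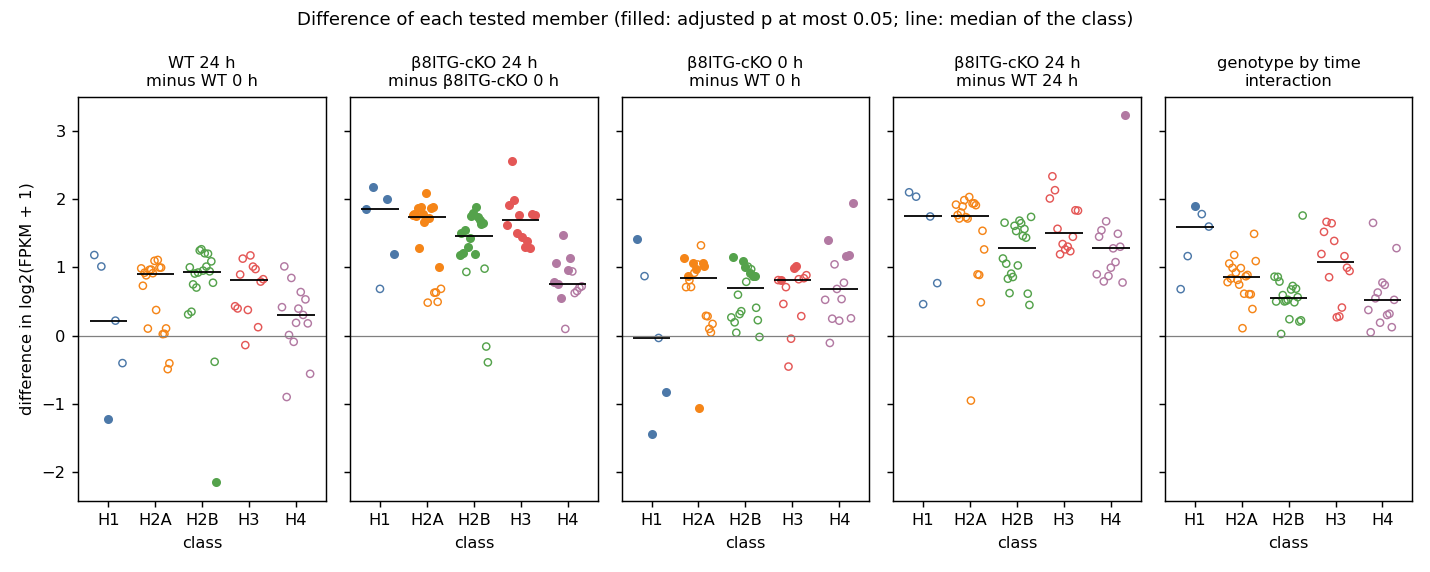
Difference in log2(FPKM + 1) of each tested member (points), by class, in the 4 comparisons and for the interaction of genotype and time. Filled points had an adjusted p of at most 0.05 in limma-trend and lines are class medians. Of 66 points, 2 are filled over time in WT and 50 over time in β8ITG-cKO. Between the genotypes 23 are filled at 0 h and 1 at 24 h, and 1 is filled for the interaction.

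Before any response (β8ITG-cKO 0 h minus WT 0 h), core histone genes had mostly higher values in β8ITG-cKO and the abundant H1 genes had lower ones. Of 66 members, 20 were past the test as higher, where 4.18% of 14708 genes were, and 3 as lower, where 2.75% were. The median difference was 0.78 beside 0.02 over all genes, and 58 members were higher and 8 lower. In 33 members all 3 β8ITG-cKO libraries lay above all 3 WT libraries, which 18.0% of all genes did. The count of 23 fell to 0 with no filter on low values, to 3 with 1 fit over all 4 groups, and to 0 without β8ITG-cKO 0 h replicate 3, 4 without β8ITG-cKO 0 h replicate 1, 7 without WT 0 h replicate 1 and 10 without WT 0 h replicate 3. Rescaling all FPKM to the same sum without the 10 highest genes shifted the median of all genes from 0.02 to -0.20, with 16 members past the test as higher and 3 as lower.

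Hist4h4, an H4 gene outside the clusters, differed most at 0 h. It had 11.8, 23.8 and 7.62 FPKM in WT and 52.5, 45.8 and 62.4 FPKM in β8ITG-cKO, with no overlap (1.95 ± 0.34, adjusted p = 0.0203, over alternatives 0.00266 to 0.0914). Hist1h1a stood at 8.66, 5.12 and 5.29 FPKM in WT and 25.0, 12.5 and 19.5 FPKM in β8ITG-cKO (1.42 ± 0.27, adjusted p = 0.0249). The H4 genes Hist1h4b (1.40), Hist1h4n (1.18) and Hist1h4m (1.17) and the H2B gene Hist1h2bb (1.16) came next among the members past the test as higher, with adjusted p of 0.0151 to 0.0270. Their libraries did not overlap between the genotypes either, although Hist1h4m and Hist1h4n share all of their coding windows with other transcripts.

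The members past the test as lower at 0 h were Hist1h1c, Hist1h1e and Hist1h2al. Hist1h1c stood at 373 to 593 FPKM in WT and 135 to 188 FPKM in β8ITG-cKO (-1.45 ± 0.21, adjusted p = 0.0119, over alternatives 0.00107 to 0.0648). Hist1h1e had 161, 215 and 157 FPKM in WT and 111, 74.3 and 115 FPKM in β8ITG-cKO (-0.83 ± 0.20, adjusted p = 0.0480). No β8ITG-cKO library reached the lowest WT library in either gene. Hist1h2al, annotated as a pseudogene and lying apart from the cluster from 51200084 to 51203066 on chromosome 13, had 6.30, 10.3 and 8.69 FPKM in WT and 3.89, 2.88 and 3.61 FPKM in β8ITG-cKO (-1.06 ± 0.18, adjusted p = 0.0189). In WT the H1 genes summed to 666 ± 161.5 FPKM, and in β8ITG-cKO to 319 ± 59.8 FPKM (SD, n = 3), while the summed levels of the other 4 classes were 1.42 to 1.52 times those in WT. These sums are not scaled to the FPKM of the library. All genes together summed to 661583 to 740140 FPKM in β8ITG-cKO 0 h and 446531 to 640837 FPKM in WT 0 h. The 69 members made up 0.310% to 0.412% of this in β8ITG-cKO 0 h and 0.391% to 0.432% in WT 0 h. Red blood cell markers moved in the same comparison, with 5 of 5 tested genes past the test as lower in β8ITG-cKO (summed level 6.52 to 15.8 FPKM against 68.0 to 152.5 FPKM in WT); their part in the histone values was not tested.

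**Figure D4:**
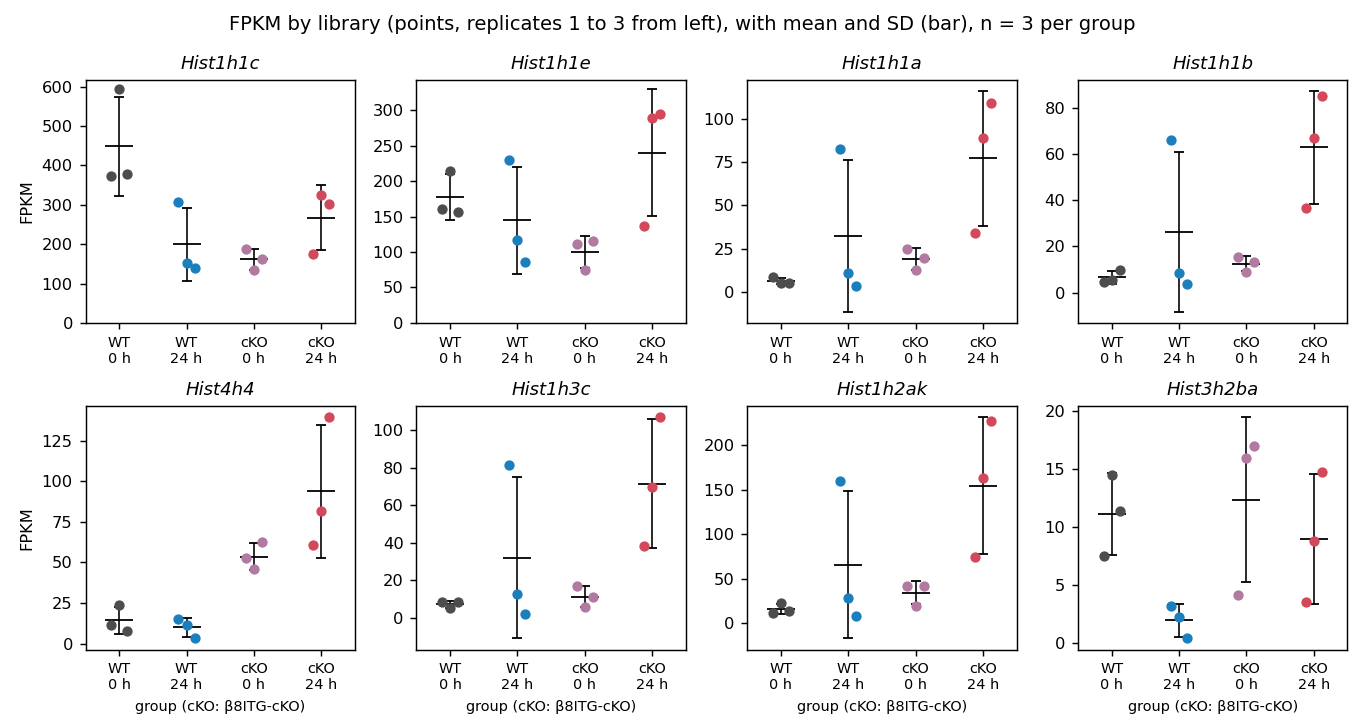
FPKM (y axes, linear) of 8 members in each library (points), with the mean and SD of the 3 libraries per group (bars). Hist4h4 was higher in every β8ITG-cKO library (45.8 to 139 FPKM) than in any WT library (3.20 to 23.8 FPKM), Hist1h1c was highest in WT 0 h (373 to 593 FPKM), and 1 WT 24 h library lay far above the other 2 for Hist1h1a, Hist1h1b, Hist1h3c and Hist1h2ak.

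At 24 h (β8ITG-cKO 24 h minus WT 24 h), 65 of 66 members were higher in β8ITG-cKO, but the spread in WT was wide and 1 was past the test. That was 1 member as higher, where 5.64% of 15366 genes were, and 0 as lower, where 0.644% were, with 17 members at an unadjusted p of at most 0.05. The median difference was 1.48 beside 0.03 over all genes. In WT the members summed to 3265 ± 2939 FPKM, and in β8ITG-cKO to 6404 ± 2502 FPKM (SD, n = 3), 1.96 times as much. In 5 members (Hist1h4c, Hist1h4i, Hist2h2be, Hist3h2ba and Hist4h4) all 3 β8ITG-cKO libraries lay above all 3 WT libraries, which 17.5% of all genes did. WT 24 h replicate 1 decided the count. Without it, 40 members were past the test as higher and 1 as lower (Hist1h2al, -1.27 ± 0.25, adjusted p = 0.0348), and the summed level was 4.06 times that in WT. Retinal markers differed here too, with 15 of 16 past the test as higher in β8ITG-cKO. Of 10 lens epithelium genes, 1 (Cdh1) was past it as lower and 0 as higher. The summed level of these 10 was 18000 to 21680 FPKM in WT and 11620 to 14100 FPKM in β8ITG-cKO. In WT 24 h replicates 1 to 3, red blood cell markers summed to 36.0, 220 and 170 FPKM. Retinal markers summed to 91.1, 158 and 172 FPKM there, and neutrophil markers to 64.7, 45.6 and 49.4 FPKM. The part of these cells in the histone values was not tested.

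Hist4h4 was the member past the test at 24 h, and its level in WT 24 h replicate 1 was also below every β8ITG-cKO library. It had 15.1, 11.6 and 3.20 FPKM in WT and 60.7, 81.4 and 139 FPKM in β8ITG-cKO (3.24 ± 0.52, adjusted p = 0.0111, over alternatives 0.00296 to 0.0489). This was past the test under each of the 13 alternatives. The 13 H4 genes together summed to 947, 398 and 243 FPKM in WT 24 h. Within β8ITG-cKO, Hist4h4 went from 45.8 to 62.4 FPKM at 0 h to 60.7 to 139 FPKM at 24 h (0.72 ± 0.28, adjusted p = 0.0660), and within WT the difference was -0.56 ± 0.55 (adjusted p = 0.464). Because the WT mice were C57BL/6 and the β8ITG-cKO mice Mixed (C57BL/6, 129S1/Sv), a difference of genotype and a difference of strain cannot be told apart in either time point.

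The change over time differed between the genotypes for Hist1h1c when tested as an interaction term, with all libraries in 1 model. It was past the test with a difference of changes of 1.91 ± 0.45 (SE, adjusted p = 0.0247, over 18 alternatives 0.00431 to 0.0674, past the test in 11). Of all 15262 genes, 6.83% were past the test in this direction and 2.56% in the other, and of 66 members 1 and 0 were. Hist1h1c was past the test as lower over time in WT and was not past it in β8ITG-cKO. All 66 members had a positive interaction, with a median of 0.75 beside 0.00 over all genes, and 6 had an unadjusted p of at most 0.05. Without WT 24 h replicate 3 the interaction was positive in 42 members and negative in 24, with a median of 0.13. By the same term 15 of 16 retinal genes (median 3.25) and 2 of 5 tested red blood cell genes (median 2.46) were past the test as higher, and their part in the histone values was not tested. Hist1h1d (1.78 ± 0.86, adjusted p = 0.234), Hist1h1e (1.60 ± 0.52, adjusted p = 0.0768) and Hist1h4c (1.66 ± 0.63, adjusted p = 0.127) did not pass. Without WT 24 h replicate 1, 14 members were past the test (2 without β8ITG-cKO 24 h replicate 1), Hist1h1c, Hist1h1d, Hist1h1e and Hist1h1b among them, and without any of 6 other libraries (WT 0 h replicate 2, WT 24 h replicate 2, β8ITG-cKO 0 h replicates 2 and 3, β8ITG-cKO 24 h replicates 2 and 3) none was.

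The letters before the starts of the members were searched for known motifs, class by class, in RefSeq promoter windows (GRCm38.p6) cut to 250 bases before the annotated start. A window was found for 62 of 69 members. CCAAT, searched on both strands as all motifs here, was in 51 of 62 windows (6 of 6 H1, 18 of 18 H2A, 16 of 16 H2B, 8 of 10 H3 and 3 of 12 H4), beside 34.5% of 27025 windows of all genes. TATAAA was in 29 of 62, beside 12.97% of all. TTTGCAT, the core of the octamer found in H2B promoters, was in 14 of 62 (7 H2A, 6 H2B and 1 H4), beside 4.056% of all. AAACACA, known as the H1 box, was in 5 of 6 H1 windows and 4 of 56 others, beside 6.22% of all. Hist1h1a was the H1 gene without it. Windows of neighbours on opposite strands can overlap, as those of Hist1h2bl (chr13:21716184-21716433) and Hist1h2ai (chr13:21716162-21716411) do. The same CCAAT sites are then counted for both members, and the same TTTGCAT for Hist1h2ah and Hist1h2bk, so the windows are not independent. A match is a description of letters and not of a bound factor.

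The windows of 3 members that differed in their behaviour are given 5′ to 3′, with the motifs found in capitals.
Hist1h1c, chromosome 13, chr13:23738557-23738806, plus strand: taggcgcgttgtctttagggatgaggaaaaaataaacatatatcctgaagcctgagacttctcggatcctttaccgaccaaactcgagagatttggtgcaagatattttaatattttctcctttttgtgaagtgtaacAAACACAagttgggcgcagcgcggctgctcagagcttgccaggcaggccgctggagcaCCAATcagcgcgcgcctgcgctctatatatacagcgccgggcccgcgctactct
Hist1h3c, chromosome 13, chr13:23745522-23745771, minus strand: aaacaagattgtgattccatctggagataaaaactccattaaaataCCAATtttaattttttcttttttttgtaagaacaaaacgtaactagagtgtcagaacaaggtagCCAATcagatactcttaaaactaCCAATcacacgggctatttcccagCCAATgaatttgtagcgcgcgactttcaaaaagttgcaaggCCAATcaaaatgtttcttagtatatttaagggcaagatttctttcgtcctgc
Hist4h4, chromosome 6, chr6:136804432-136804681, minus strand: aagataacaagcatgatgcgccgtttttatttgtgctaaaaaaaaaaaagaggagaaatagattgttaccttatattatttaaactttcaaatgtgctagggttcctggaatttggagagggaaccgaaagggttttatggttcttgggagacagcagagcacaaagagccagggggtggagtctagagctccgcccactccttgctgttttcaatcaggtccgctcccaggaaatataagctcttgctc
Hist1h3c, the member with the largest rise in β8ITG-cKO, held 5 copies of CCAAT, Hist1h1c held 1 beside an H1 box, and Hist4h4 held none of the 4 motifs. No such letters in a window says only that they are not there.

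A total of 5 members (Hist1h2be, Hist1h2bp, Hist1h2bq, Hist1h2br and Hist1h2bc, all H2B genes) have GENCODE models with a second exon, which the usual histone mRNA lacks. Of these, 5 of 5 were past the test as higher over time in β8ITG-cKO (median difference 1.63), beside 45 of the 61 other tested members (median 1.39). These others include Hist1h2al, which has no protein-coding model. In WT over time their median was 0.94 beside 0.73. The difference between the models was not tested. Hist1h2bq and Hist1h2br lay within 1% of each other in 10 of 12 libraries and are not separate results.

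Part of the genes that make and process histone mRNA rose over time. Of 23 tested genes of this list, 7 were past the test as higher over time in WT and 12 in β8ITG-cKO, with 0 and 1 lower, where 20.9% and 35.4% of all genes were past it as higher. Slbp stood at 8.86, 7.89 and 7.02 FPKM in WT 0 h and 28.9, 18.2 and 10.8 FPKM in WT 24 h, with all 3 later libraries higher (1.09 ± 0.31, adjusted p = 0.0330). In β8ITG-cKO it went from 11.8, 10.3 and 9.52 FPKM to 17.7, 21.1 and 21.7 FPKM (0.87 ± 0.12, adjusted p = 0.000824). Npat, the coactivator of histone transcription at S phase entry, was at 2.12 to 4.14 FPKM in the 12 libraries (0.01 ± 0.19 in WT and 0.20 ± 0.13 in β8ITG-cKO, adjusted p = 0.985 and 0.263). Ccne1, cyclin E1, rose in both, by 1.63 in WT and 1.62 in β8ITG-cKO (adjusted p = 0.0481 and 0.000293), and Cdk2 rose by 1.03 in β8ITG-cKO. In WT, Slbp and Ccne1 were past the test in 6 and 5 of 13 alternatives. Ncbp2, a subunit of the cap-binding complex, was higher in β8ITG-cKO at 0 h (0.71 ± 0.15, adjusted p = 0.0343) and fell over time there (-0.44 ± 0.13, adjusted p = 0.0270). At 24 h no gene of the list was past the test between the genotypes, where 5.64% of all genes were past it as higher and 0.644% as lower.

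Replication genes rose over time in both genotypes. Of 32 S phase and proliferation genes, 16 were past the test as higher over time in WT and 31 in β8ITG-cKO, 8 were higher in β8ITG-cKO at 0 h, and 0 were at 24 h or by the interaction. Of all genes tested, 20.9%, 35.4%, 4.18%, 5.64% and 6.83% were past it as higher in these comparisons, in the same order. Uhrf1, which recruits maintenance methylation to copied DNA, and Mcm3 rose most, by 2.93 and 2.84 in WT and 2.40 and 2.09 in β8ITG-cKO. The helicase genes Mcm2 to Mcm7 summed to 17.0, 16.3 and 17.8 FPKM in WT 0 h, 185, 126 and 46.4 FPKM in WT 24 h, 33.5, 33.5 and 33.4 FPKM in β8ITG-cKO 0 h, and 101, 159 and 134 FPKM in β8ITG-cKO 24 h. All 6 were past the test as higher over time in WT, where no histone gene was past it as higher.

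WT 24 h replicate 2 had high Mcm levels and a low summed histone level. Its Mcm2 to Mcm7 sum lay inside the range of the β8ITG-cKO 24 h libraries, and its histone sum of 1874 FPKM lay below every WT 0 h library. By class, H1 (310 FPKM against 568 to 852 FPKM in WT 0 h) and H2A (546 against 570 to 714 FPKM) lay below every WT 0 h library. H4 (398 FPKM) lay inside the WT 0 h range. H2B (468 against 299 to 426 FPKM) and H3 (152 against 130 to 150 FPKM) lay above it. The histone sum was 14.8 times the Mcm sum in WT 24 h replicate 2, 35.85 and 27.6 times in WT 24 h replicates 1 and 3, and 36.5 to 64.1 times in β8ITG-cKO 24 h. At 0 h, where the Mcm sum was low, it was 108 to 164 times in WT and 61.3 to 91.1 times in β8ITG-cKO. Mki67, a marker of dividing cells, was at 27.0, 4.46 and 1.31 FPKM in WT 24 h and 10.4, 21.6 and 25.2 FPKM in β8ITG-cKO 24 h (adjusted p = 0.560 over time in WT and 0.00626 in β8ITG-cKO). Its high and low libraries at 24 h were those of the histone sum. At 0 h this held in β8ITG-cKO, while in WT the order was reversed. There Mki67 was at 3.37, 2.78 and 4.63 FPKM beside histone sums of 2124, 2664 and 1927 FPKM. Ccna2, cyclin A2, had 7.87, 2.24 and 0.452 FPKM in WT 24 h and 4.06, 7.28 and 10.6 FPKM in β8ITG-cKO 24 h. Pcna, the replication clamp, and Rrm2, a ribonucleotide reductase subunit, were at 36.45 and 10.96 FPKM in WT 24 h replicate 2, inside the range of the β8ITG-cKO 24 h libraries as the Mcm sum was.

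**Figure D5:**
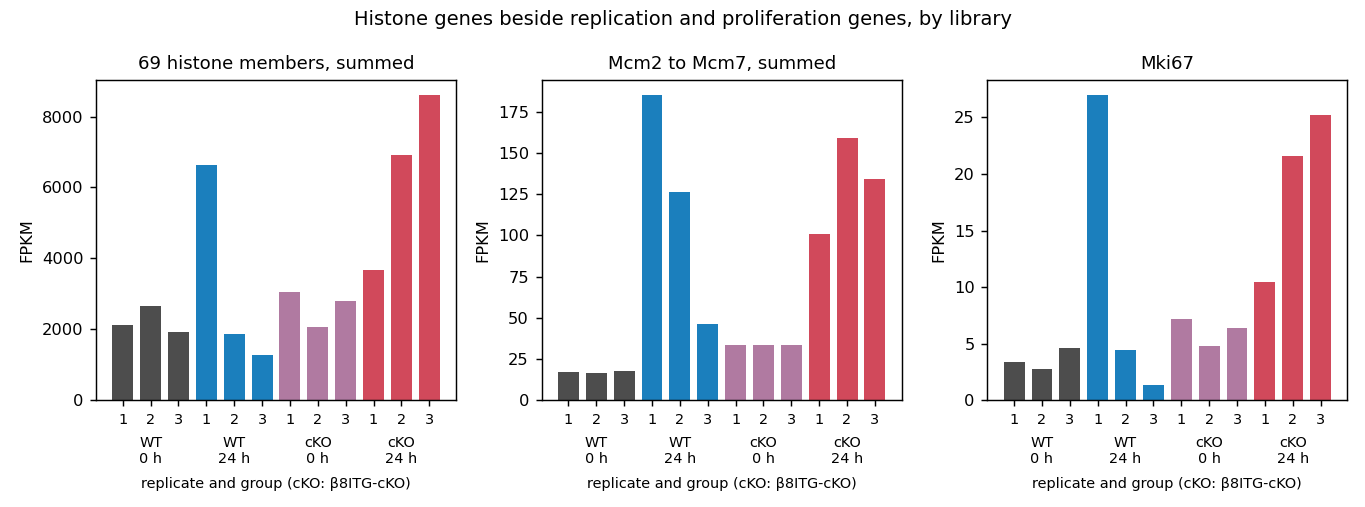
Summed FPKM of the 69 members, summed FPKM of Mcm2 to Mcm7, and FPKM of Mki67 (y axes, linear from 0) in each library, coloured by group and numbered by replicate. In WT 24 h replicate 2 the Mcm sum of 126 FPKM stands beside a histone sum of 1874 FPKM and a Mki67 level of 4.46 FPKM, while replicate 1 is high in all 3 panels.

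Histone chaperones and assembly factors rose in part. Of 24 genes, 9 were past the test as higher and 1 as lower over time in WT, and 17 and 2 in β8ITG-cKO. Of all genes tested, 20.9% and 8.81% were in WT, and 35.4% and 10.7% in β8ITG-cKO. Chaf1a, the large subunit of the CAF-1 complex, rose by 1.71 in each genotype (adjusted p = 0.0271 and 0.000116), Nasp, an H3-H4 chaperone, by 0.99 and 0.86 (adjusted p = 0.0225 and 0.00437), and Asf1b by 1.13 in β8ITG-cKO (adjusted p = 0.00131). Nap1l4, which chaperones H2A and H2B, fell by 0.96 in WT and 1.23 in β8ITG-cKO (adjusted p = 0.00801 and 5.51e-05). At 24 h no gene of this list was past the test between the genotypes, where 5.64% of all genes were past it as higher and 0.644% as lower.

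Replacement histone genes moved in both directions. Of 11 genes, 0 were past the test as higher and 2 as lower over time in WT, and 5 and 2 in β8ITG-cKO. Of all genes tested, 20.9% and 8.81% were in WT, and 35.4% and 10.7% in β8ITG-cKO. H2afx, whose mRNA exists in a stem-loop and a polyadenylated form, went from 10.1, 7.11 and 11.1 FPKM to 20.7, 25.5 and 36.6 FPKM in β8ITG-cKO (1.44 ± 0.22, adjusted p = 0.00158). H2afz rose by 0.65 there (adjusted p = 0.00315), H1fx fell by 0.79 in WT and 0.72 in β8ITG-cKO (adjusted p = 0.0108 and 0.0236), and H1f0, the linker histone of resting cells, was at 23.1 to 35.4 FPKM in the 12 libraries (adjusted p = 0.798 and 0.0990). H3f3a and H3f3b, which both encode H3.3, differed from each other. H3f3b was at 101, 136 and 121 FPKM in WT 0 h and 57.9, 49.2 and 54.7 FPKM in β8ITG-cKO 0 h, with no overlap (-1.123 ± 0.14, adjusted p = 0.00582), and H3f3a was at 107, 128.5 and 96.5 FPKM in WT 0 h and 129, 112.5 and 129.9 FPKM in β8ITG-cKO 0 h (0.17 ± 0.13, adjusted p = 0.481). By 24 h H3f3b stood at 84.1 to 105 FPKM in WT and 91.6 to 102.5 FPKM in β8ITG-cKO.

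Markers of other cell types moved with time as well. Of all genes tested, 20.9% were past the test as higher and 8.81% as lower over time in WT, and 35.4% and 10.7% in β8ITG-cKO. Between the genotypes 4.18% were past it as higher at 0 h and 0.644% as lower at 24 h. All 12 lens fiber genes fell in both genotypes, from summed levels of 2169 to 2489 FPKM at 0 h to 218 to 430 FPKM at 24 h. Neutrophil markers rose from 0.459 to 1.54 FPKM at 0 h to 45.6 to 64.7 FPKM in WT 24 h and 12.3 to 35.0 FPKM in β8ITG-cKO 24 h, with 5 of 5 and 4 of 4 tested past the test as higher and Ly6g, Mpo and Elane at 0 in all libraries. Macrophage markers rose in 5 and 7 of 11 tested genes (12.1 to 25.0 FPKM at 0 h, 44.5 to 75.0 FPKM at 24 h). All 16 retinal genes rose over time in β8ITG-cKO. Red blood cell markers were past the test as higher over time in 5 of 5 tested genes in β8ITG-cKO and in 0 of 5 in WT (36.0 to 220 FPKM in WT 24 h). Corneal markers summed to 536 to 912 FPKM in β8ITG-cKO 0 h and 139 to 407 FPKM in the other groups, and nearly all of this was Aldh3a1. In β8ITG-cKO 0 h Aldh3a1 had 911, 535 and 755.5 FPKM, while the keratins Krt12 and Krt5 were at most 0.191 and 0.430 FPKM, so the sum does not stand for the list. Aldh3a1 was past the test as higher in β8ITG-cKO at 0 h (1 of 2 tested) and as lower over time there (1 of 1 tested). Iris and ciliary pigment markers summed to 11.5 to 84.0 FPKM, with Pmel past the test between the genotypes at 24 h, as lower. Of 10 lens epithelium genes, 1 was past the test as higher and 4 as lower over time in WT, and 0 and 7 in β8ITG-cKO. Of the same list, 1 gene (Cdh1) was past it as lower in β8ITG-cKO than in WT at 24 h, and as lower by the interaction. The part of these cells in the histone values was not tested.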

How the data were processed

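RNA of 12 libraries was measured, 3 biological replicates in each of 4 groups, with stranded total RNA libraries made from low input and sequenced as read pairs of 100 bases. Per the submitters' processing notes, FastQC, cutadapt 1.12, TopHat2 2.1.0 and Cuffdiff 2.2.1 were used with mm10 (GRCm38.p5). The authors deposited FPKM per library and gene in 4 tables, each for a pair of groups, beside group means, log2 fold changes, p-values and q-values of their own tests, none of which was used. The 12 library columns held by 2 tables were identical in both. A further 8 columns hold means of groups and stayed out. Counts were not used here, so no counting error can be given, and relative depths were read from the spacing of low FPKM (genes averaging below 0.3). Total RNA libraries put 34.5% to 48.4% of the FPKM in the 10 highest genes, so scaling was varied.

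For each pair of groups, limma-trend (limma 3.58.1, R 4.3.3, with eBayes) was run on log2(FPKM + 1), keeping genes that averaged 0.5 FPKM or more, with Benjamini-Hochberg adjustment over all genes tested. The interaction used all 12 libraries. Differences are on this scale and understate the change of low genes. The fit was tested on simulated data. Summaries were computed in Python 3.11.15 (pandas 2.3.3, numpy 2.4.6) and plotted with matplotlib 3.10.9. Members were matched to GENCODE vM21 (69 of 69) and RefSeq genes (69 of 69, all overlapping the files' positions). Positions are 1-based.

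Named members are the 15 with the highest mean, the highest of each class, the 6 largest rises and falls past the test in each comparison, and those at 0 in every library; other genes named come from 4 lists, with the 2 largest rises and falls in each. Any other gene named was picked with its values in view. The members and lists were chosen with earlier results of these data known. Alternatives covered the pseudocount (0.1), the filter (none, or 2 FPKM), 2 rescalings, a single fit of the 4 groups, a block for the replicate number, each library left out, and the study's added criteria (fold over 2, difference over 2 FPKM, a mean of at least 2 FPKM).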

Additional observations from a re-analysis of the deposited data

Results flagged for a closer look

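The change over time differed between the genotypes, by the interaction term of 1 limma-trend fit over 12 libraries, for Hist1h1c (1.91 on the log2 scale, β8ITG-cKO minus WT, adjusted p = 0.0247, past the test in 11 of 18 alternatives), for the H3.3 gene H3f3b (1.198, adjusted p = 0.00638, past the test in 18 of 18) and for the cap-binding gene Ncbp2 (-0.88, adjusted p = 0.0305, past the test in 10 of 18). For Hist1h1c and H3f3b the β8ITG-cKO 0 h libraries were below all WT 0 h libraries, and at 24 h the genotypes overlapped. For Ncbp2 the β8ITG-cKO 0 h libraries were above all WT 0 h libraries. Retinal genes (15 of 16) and red blood cell genes (2 of 5 tested) were past the test as higher by the same term, where 6.83% of all genes were. Their part in these values was not tested.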

How the results depend on the processing

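Neither rescaling turned the members past the test from mostly higher to mostly lower or the reverse. With the study's criteria added, 15 members were higher and 2 lower at 0 h between the genotypes. After rescaling to the same sum without the 10 highest genes these counts were 3 and 3. Members past the test over time in WT numbered 2 (1 with no filter on low values, 1 to 7 with 1 library left out), in β8ITG-cKO 50 (32 with no filter, 18 with 1 fit over all 4 groups, 36 to 61 with 1 library left out), at 0 h between the genotypes 23 (0 with no filter, where 40 had an unadjusted p of at most 0.05, 3 with 1 fit, 0 to 29 with 1 library left out), at 24 h 1 (3 with 1 fit, 1 to 41) and by the interaction 1 (0 with no filter, 2 after rescaling to the same sum without the 10 highest genes, 0 to 14). Under no filter many more genes are tested, and the other causes were not tested. With the replicate number as a block the counts were 2, 51, 4, 2 and 1, so the block moved the count between the genotypes at 0 h from 23 to 4 and at 24 h from 1 to 2. Same-numbered libraries did not deviate together (r of -0.22 to 0.08), so the numbers give no pairing.

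Of 88 changes of single named genes, the alternatives that keep all libraries left 504 values on the same side of the threshold and 105 past it no longer, and leaving out a library left 382 and 164. The rise of Sympk in β8ITG-cKO over time (0.26) became -0.0245 after rescaling to the same median. Of 40 rescaled class sums 37 moved by less than 1 SD. Over all genes, rescaling to the same median changed the calls over time from 3165 higher and 1335 lower to 2199 and 2447 in WT and from 5394 and 1636 to 3217 and 3008 in β8ITG-cKO, and the sum rescaling changed those at 0 h from 615 and 405 to 257 and 1572. No value has a counting error, and low members such as Hist2h2be are limited by the pseudocount.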
